A study of Sus scrofa with 12 samples.

Results

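miR-210 is described here across 12 small RNA libraries of extracellular vesicles, the membrane particles that cells shed into their medium. It was taken by its name as the single row ssc-miR-210, 1 of 252 mature pig miRNAs in the table. They were isolated by differential ultracentrifugation of medium from bone marrow mesenchymal stromal cells, the fibroblast-like precursors of bone and cartilage, of wild-type juvenile Yucatan minipigs. Cells of 4 donors were each grown on microcarriers in a stirred spinner flask, in a perfusion bioreactor with medium flowing over bioscaffolds at 4 mL/min, and on flat tissue culture plates seeded at 5000 cells/cm2. Each of the 3 culture methods thus had 4 libraries, 1 per donor. The plate medium held 10% fetal bovine serum, the microcarrier medium held none for the first 2 hours and 10% afterwards, and the labels give no serum content for perfusion. Differences due to culture method and to medium therefore cannot be told apart. All cells had been expanded on plates and frozen before they went into any of the 3 methods, and the labels give no oxygen level for any of them.

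MicroRNAs (miRNAs) are short RNAs that pair with messages and repress them. miR-210 is the best known miRNA induced by low oxygen: in human and mouse cells, hypoxia-inducible factors (HIFs) switch on its gene. It then represses the iron-sulfur cluster scaffold ISCU, so that mitochondrial respiration slows, and the ephrin EFNA3, so that vessel formation is favoured. It is also found in vesicles and in serum, and it rises when red blood cells mature. In RefSeq's gene table for the pig assembly Sscrofa11.1, the gene MIR210 stands between RASSF7 and PHRF1, followed by the interferon regulator IRF7.

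Reads were recovered from the steps between values and summed over the 252 rows. The sums were 607776 to 2244584 in microcarrier libraries, 671012 to 1614726 in perfusion libraries and 264407 to 3253003 in plate libraries. Reads shared between rows, as miR-129a-5p and miR-129b appear to have, would count more than once, so these sums are not the reads sequenced. All 14 stromal markers looked for were measured, and together they held 39.2% to 52.0% of the normalized counts on microcarriers, 49.6% to 51.7% in perfusion and 36.5% to 47.7% on plates. None of 6 epithelial markers was among the rows analysed here. Of 8 markers of blood cells all were measured, with sums of 3573 to 9579 normalized counts on microcarriers, 735.1 to 2000.0 in perfusion and 1508 to 4192 on plates. The sums do not show the change of a typical marker. In perfusion over plates the 8 had a median log2 fold change of -3.99 and a highest of 0.18. The myeloid marker miR-223 was listed at 0 in all 4 perfusion libraries.

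miR-210 was a miRNA of middle abundance, the 83rd of 252 by its mean over the libraries. On microcarriers it stood at 401.5, 905.7, 1164 and 1399 normalized counts in donors 1 to 4. In perfusion it stood at 447.9, 332.2, 362.6 and 449.9. On plates it stood at 77.6, 162.6, 179.0 and 164.1. The 4 plate libraries were thus the lowest of the 12, and the 3 highest were microcarrier libraries of donors 2, 3 and 4. The microcarrier library of donor 1 lay among the perfusion libraries. The means were 967.7 ± 428 on microcarriers, 398.1 ± 59.9 in perfusion and 145.8 ± 46.1 on plates (SD, n = 4 each). Normalized counts are per library, so more vesicles carrying miR-210 and more miR-210 per vesicle cannot be told apart.

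**Figure D1:**
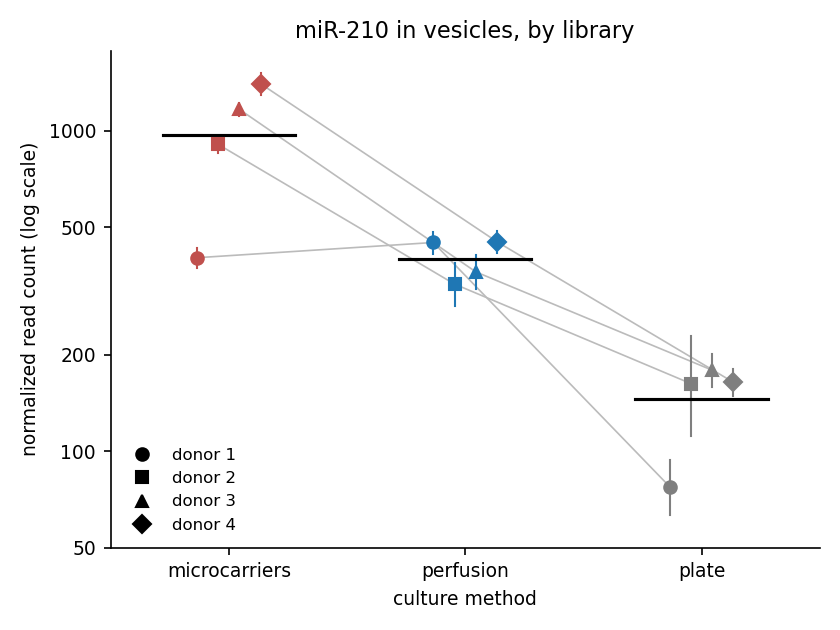
Normalized read count of miR-210 (log axis) in each library, by culture method, with marker shapes for the 4 donors, grey lines joining libraries of the same donor, vertical bars for the exact Poisson 95% interval of the reads and black lines for group means. All microcarrier and perfusion libraries lie above all plate libraries, and microcarrier donor 1, at 401.5, lies among the perfusion libraries.

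These values rested on 763, 1137, 1825 and 619 miR-210 reads in microcarrier donors 1 to 4, on 619, 171, 268 and 600 in perfusion, and on 101, 33, 285 and 403 on plates. The thinnest was plate donor 2, whose 33 reads gave an exact Poisson 95% interval of 111.9 to 228.3 normalized counts. That interval reaches neither the lowest perfusion value nor the lowest microcarrier value. Intervals cover counting error only, since reads without molecular identifiers are not independent molecules. The spread between donors exceeded counting error 12.3 times on microcarriers (SD 428 against a counting SD of 34.8), 2.83 times in perfusion and 2.86 times on plates. The coefficient of variation was 44.2% on microcarriers, 15.0% in perfusion and 31.6% on plates, and the values for microcarriers and plates rested on donor 1. Without donor 1 it was 21.3% on microcarriers, with a spread 6.28 times counting error, and 5.39% on plates, with a spread of 0.503 of counting error. Without donor 2, whose library was the thinnest, the spread on plates was 6.14 times counting error.

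As a share of all normalized counts, miR-210 made up 0.0340% to 0.102% on microcarriers, 0.0255% to 0.0421% in perfusion and 0.00717% to 0.0154% on plates. By normalized count it ranked 54th to 89th of the 252 miRNAs in the microcarrier libraries, 83rd to 94th in perfusion and 109th to 148th on plates. These ranks set mature miRNAs of nearly equal length beside each other, and differences in how well each is ligated and amplified were not tested.

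The comparison of microcarriers with plates asked how stirred culture on beads differed from flat culture. miR-210 was higher on microcarriers than on plates in 4 of 4 donors, by 5.17, 5.57, 6.50 and 8.53 times in donors 1 to 4. The groups did not overlap: the lowest microcarrier library had 401.5 normalized counts and the highest plate library 179.0. In limma across all 252 miRNAs the log2 fold change was 2.65 ± 0.39 (SE; 95% interval 1.81 to 3.49), with an adjusted p of 0.00185. By p it came first of the 252 and by fold change 3rd. In this comparison 2.38% of miRNAs were called (6 of 252), 1.59% higher and 0.794% lower, and 5.16% were higher and 6.75% lower in every microcarrier library than in every plate library. With donor as a block 23 miRNAs were called. Without plate replicate 1 there were 12 calls, and without plate replicate 3 or 4 there were 3, with miR-210 called each time.

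The comparison of perfusion with plates asked the same of flow over a scaffold. miR-210 was higher in perfusion than on plates in 4 of 4 donors, by 5.77 times in donor 1 and by 2.04, 2.03 and 2.74 times in donors 2, 3 and 4. Donor 1 stood apart through its plate library, the lowest of all 12, while its perfusion library was close to that of donor 4. The groups again did not overlap, with a lowest perfusion value of 332.2 against a highest plate value of 179.0. The log2 fold change was 1.50 ± 0.39 (SE; 95% interval 0.66 to 2.34; limma adjusted p = 0.0164). Calls made up 20.6% of the 252 miRNAs here (10.3% higher and 10.3% lower), and 12.3% were higher and 10.7% lower in every perfusion library, against 2.38% called between microcarriers and plates. With donor as a block the counts were 64 and 23. By fold change miR-210 ranked 22nd. Without perfusion replicate 1 the log2 fold change was 1.44 and the call was lost (limma adjusted p = 0.0511). Blood-cell markers differed in the other direction, with 7 of 8 lower in perfusion than on plates. So did the liver marker miR-122-5p (log2 fold change -4.29) and both arms of the endothelial miR-126 (-2.90 and -2.67), all called. Of 8 measured miRNAs of a serum list, which shares members with the blood-cell list, 5 were called lower and 1 higher. With these lists left out of the library totals used for scaling, the miR-210 call was kept. Their part in the miR-210 difference itself was not tested. Both comparisons share the same 4 plate libraries.

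**Figure D2:**
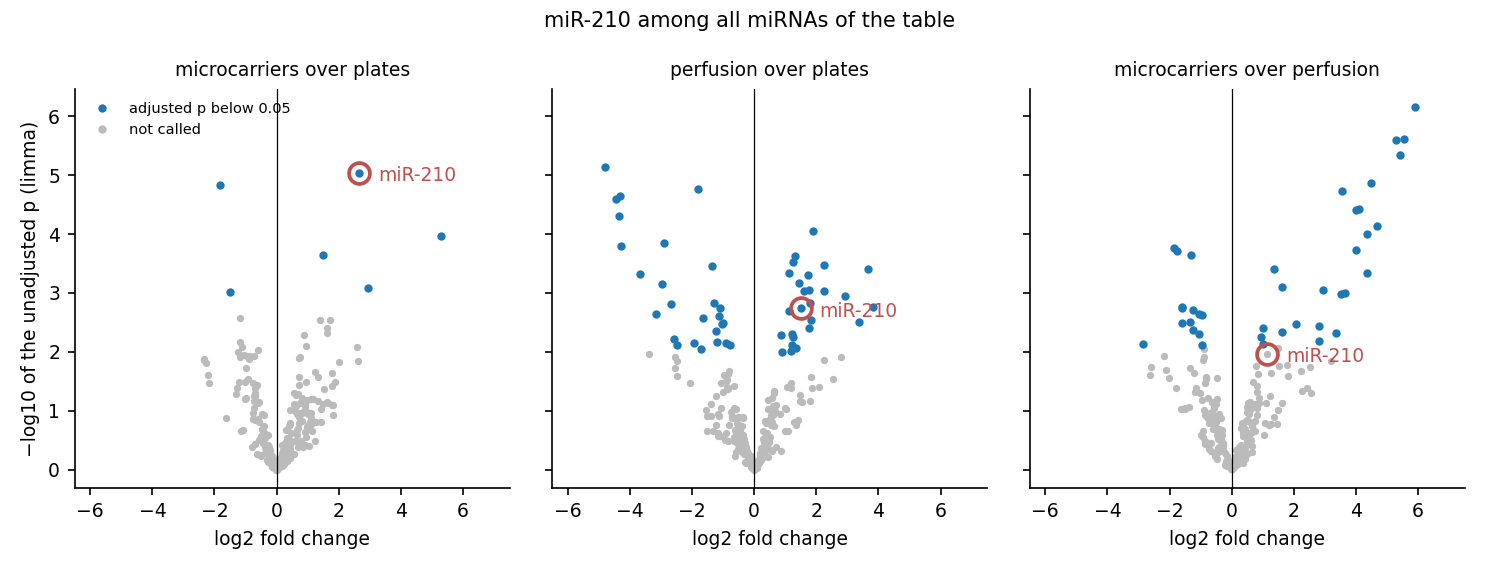
Unadjusted p in limma (−log10) against the log2 fold change of all 252 miRNAs in each comparison, with blue points for an adjusted p below 0.05 and miR-210 circled in red. miR-210 has the smallest p of microcarriers over plates, lies among 26 higher calls of perfusion over plates and misses the threshold for microcarriers over perfusion.

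miR-210 was also compared directly between microcarriers and perfusion. It was higher on microcarriers than in perfusion in 3 of 4 donors, by 2.73, 3.21 and 3.11 times in donors 2, 3 and 4. In donor 1 the microcarrier value was 401.5 and the perfusion value 447.9, a ratio of 0.896, with overlapping counting intervals (373.5 to 431.0 against 413.3 to 484.6). The log2 fold change was 1.15 ± 0.39 (SE; 95% interval 0.31 to 1.99) and did not pass (limma adjusted p = 0.0645). It passed with donor as a block (limma adjusted p = 0.0272, SE 0.33), and without microcarriers replicate 1 at a log2 fold change of 1.53 (limma adjusted p = 0.0127). It also passed without plate replicate 1, with an unchanged log2 fold change of 1.15 (limma adjusted p = 0.0437). Calls made up 15.5% of miRNAs (9.92% higher and 5.56% lower), and 13.1% were higher and 11.5% lower in every microcarrier library. Scaling to library totals gave 20 higher and 17 lower calls in place of 25 and 14. It put the median over the 252 miRNAs at -0.08 in place of 0.07 on the log2 scale, and miR-210 at 1.01. Of the blood-cell markers 7 of 8 were called higher on microcarriers. The same held for miR-122-5p, both arms of miR-126 and 5 of the 8 serum-list miRNAs. Whether any of them bear on miR-210 here was not tested.

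A ratio of 2 miRNAs within a library does not depend on how libraries were scaled. Therefore miR-210 was also set against miR-21-5p, the most abundant miRNA and a typical stromal one. miR-21-5p is also 1 of the 18 measured miRNAs reported as induced by low oxygen, described below. Its log2 fold changes over plates were 0.42 on microcarriers and 0.30 in perfusion, neither of them called. On microcarriers there were 1.66, 2.49, 3.08 and 3.22 miR-210 reads per 1000 miR-21-5p reads in donors 1 to 4. In perfusion there were 1.43, 0.940, 1.28 and 1.35. On plates there were 0.455, 0.50, 0.633 and 0.565. On this scale all 3 culture methods separated without overlap, in the order microcarriers, perfusion, plates, donor 1 included. Of the 251 miRNAs other than miR-21-5p, miR-210 was the 1 with this order in every library (0.398%). The order was looked for after the values had been seen, so miR-210 having it was fixed in advance and the count is no test. Other denominators did not keep it. With let-7i-5p, microcarrier donor 1, at a log2 ratio of -7.47, lay within the perfusion range of -8.18 to -7.28. With the sum of the 10 most abundant miRNAs it lay at -11.02, within -11.54 to -10.77. On microcarriers miR-21-5p was itself lowest in donor 1, at 242210 normalized counts.

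The ratio to miR-21-5p was 4.74-fold higher on microcarriers than on plates (log2 difference 2.24) and 2.32-fold higher in perfusion than on plates (1.21). It was 2.05-fold higher on microcarriers than in perfusion (1.03). Each difference gave an exact two-sided permutation p of 0.0286, the smallest that 4 against 4 libraries allow, and 0.0286 after adjustment over the 3 comparisons. Paired by donor, the ratio was higher in 4 of 4 donors in each comparison, and an exact sign-flip test gave its smallest possible p of 0.13, so that none of the 3 could pass when paired. No overlap of this ratio in the higher direction was seen for 1.2% of miRNAs between microcarriers and plates, for 5.58% between perfusion and plates and for 9.96% between microcarriers and perfusion. With let-7i-5p as the denominator, the log2 differences were 2.47, 1.47 and 1.00, and with the sum of the 10 most abundant miRNAs 2.57, 1.55 and 1.02, in the same order of comparisons. Both differences from plates kept an adjusted exact permutation p of 0.0429 with either denominator. Between microcarriers and perfusion the call was lost, at an adjusted exact permutation p of 0.0571 with let-7i-5p and 0.0857 with the 10 miRNAs.

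**Figure D3:**
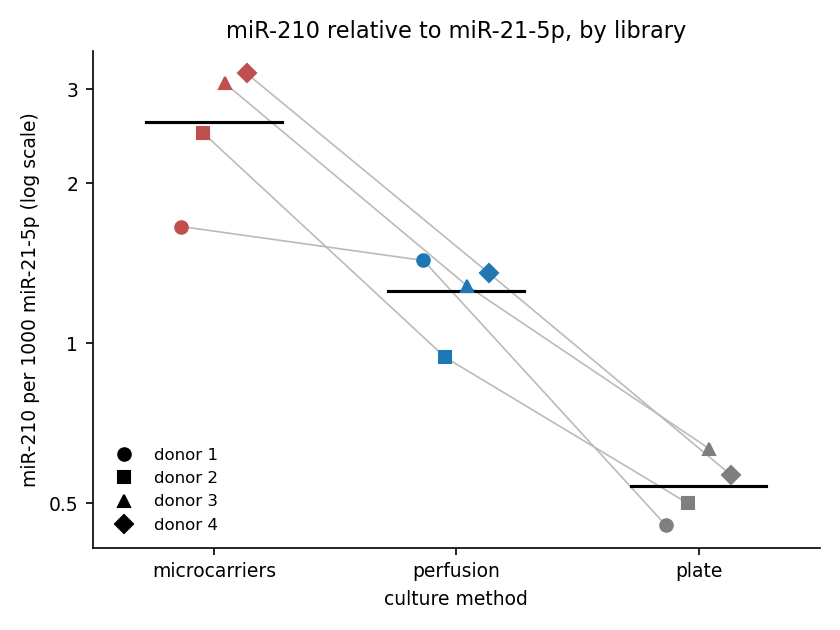
miR-210 per 1000 miR-21-5p (log axis) in each library by culture method, with marker shapes for donors, grey lines joining libraries of the same donor and black lines for group means. Microcarrier libraries run from 1.66 to 3.22, perfusion libraries from 0.940 to 1.43 and plate libraries from 0.455 to 0.633.

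Of 22 other miRNAs reported as induced by low oxygen in human cells, 18 were measured. On microcarriers against plates 1 of the 18 was called higher and none lower, in perfusion against plates 2 were higher and 1 lower, and on microcarriers against perfusion 1 was higher and none lower. Over all 252 miRNAs 2.38%, 20.6% and 15.5% were called in these comparisons. At an unadjusted limma p under 0.05 there were 4, 6 and 4 of the 18, beside 51, 79 and 74 of the 252, and limma-voom on recovered reads called 1, 3 and 1, beside 6, 51 and 39. Their median log2 fold changes were 0.32, 0.25 and 0.25, beside 0.11, -0.06 and 0.07 over all 252 miRNAs. With donor as a block 4, 7 and 5 of the 18 were called, beside 23, 64 and 59 of the 252.

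miR-23a, a member of the miR-23/27/24 cluster that was among the first miRNAs described as hypoxia-induced, was called higher than on plates in both dynamic cultures. It stood at 8634, 12430, 16956 and 25649 normalized counts on microcarriers in donors 1 to 4, at 10744, 7673, 9731 and 11175 in perfusion, and at 6119, 5863, 4939 and 4134 on plates. As with miR-210, neither dynamic group overlapped the plates, and microcarrier donor 1 lay within the perfusion range. Its log2 fold change was 1.50 ± 0.30 on microcarriers against plates (SE; limma adjusted p = 0.0143) and 0.90 ± 0.30 in perfusion against plates (limma adjusted p = 0.0493). The first call was lost without microcarriers replicate 3, plate replicate 3 or plate replicate 4, at adjusted p-values up to 0.0520, and in a fit of those 2 groups alone (0.0819). The second was lost in 10 of the 12 fits that left out a library, at up to 0.132.

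miR-155-5p, which in human cells is induced by both HIF and inflammatory signals, was higher in perfusion than on plates by 1.74 ± 0.39 on the log2 scale (SE; limma adjusted p = 0.00784). On microcarriers against plates its log2 fold change was 1.39 ± 0.39 without passing (limma adjusted p = 0.0819), and it passed with donor as a block (limma adjusted p = 0.0283). miR-27a, encoded beside miR-23a, was lower in perfusion, at 5626 ± 1420 normalized counts against 11839 ± 4647 on plates (SD, n = 4 each; limma adjusted p = 0.0235), and was the one member called between microcarriers and perfusion. That perfusion call was lost without perfusion replicate 1, perfusion replicate 3, plate replicate 1 or plate replicate 2, at adjusted p-values up to 0.0810. Its log2 fold change of microcarriers over plates was 0.32 ± 0.29, far below that of miR-210.

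**Figure D4:**
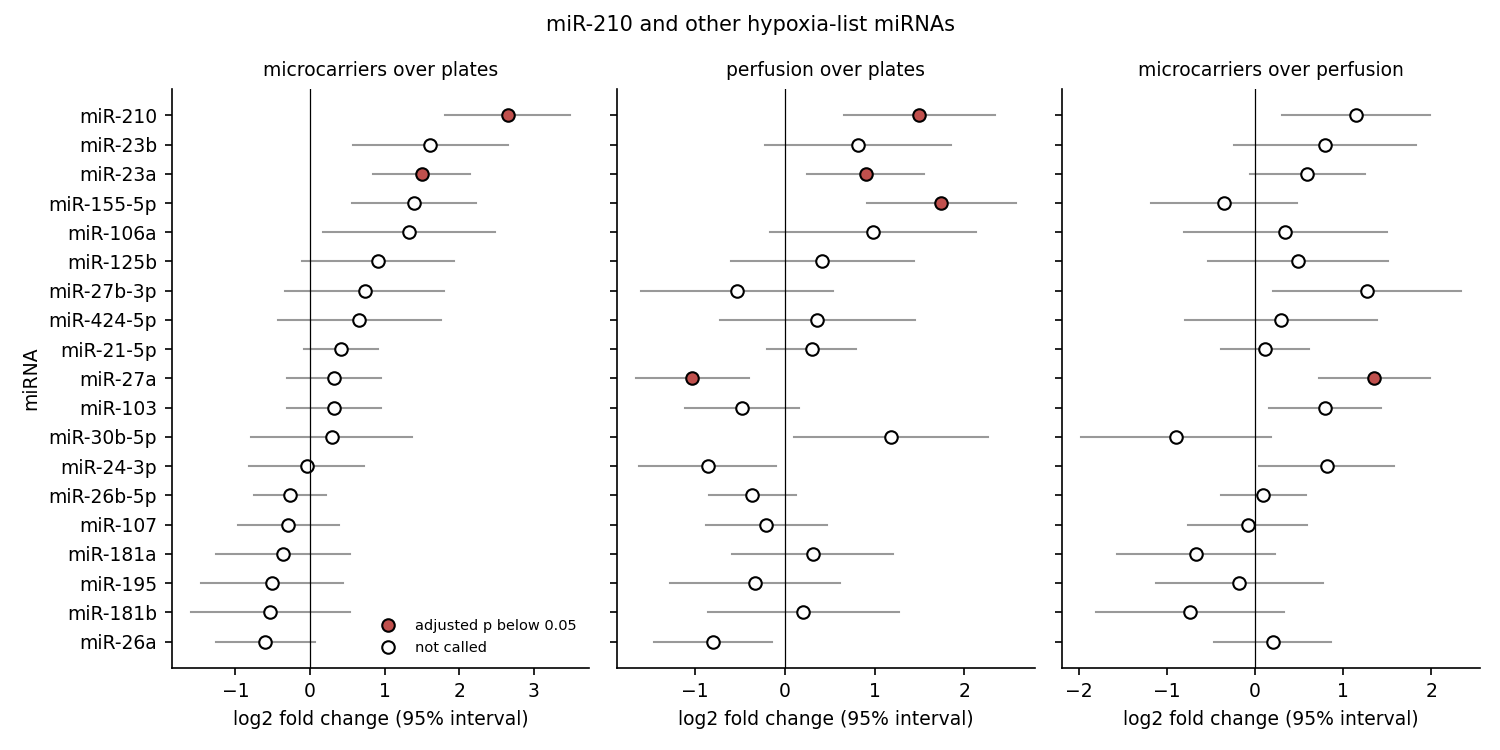
Log2 fold change with its 95% interval in limma for miR-210 and the 18 other measured hypoxia-list miRNAs in each comparison, with filled points for an adjusted p below 0.05. miR-210 and miR-23a are the filled points of microcarriers over plates, and miR-210, miR-23a, miR-155-5p and miR-27a those of perfusion over plates.

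miRNAs reported to act on the HIF pathway itself, by repressing HIF subunits or the enzymes that destroy them, were listed as a second group. Of 12 listed, 10 were measured. None was called on microcarriers against plates in limma (1 at an unadjusted p under 0.05, 0 in limma-voom), and none on microcarriers against perfusion (3 and 0), where donor as a block called 1. In perfusion against plates 2 were higher: miR-18a (1.84 ± 0.51) and miR-20b (1.35 ± 0.44), both of the growth-linked miR-17-92 family (log2 fold change ± SE). These 2 of 10 stand beside 20.6% called over all miRNAs, and limma-voom called 1 of them. The miR-18a call was lost in 4 of the 12 fits that left out a library. The miR-20b call was lost in 6 of them, in limma-voom (adjusted p = 0.0635) and without the mean-dependent prior (limma adjusted p = 0.0531). Of 20 measured miRNAs linked to vessel growth, miR-23a was the 1 called higher on microcarriers than on plates. There 15 of the 20 had log2 fold changes above 0, with a median of 0.68 beside 0.11 over all 252 miRNAs. With donor as a block 3 of the 20 were called, beside 13 higher and 10 lower calls over all 252. In perfusion against plates 4 of the 20 were higher (miR-132, miR-18a, miR-23a and miR-92a) and 2 lower, both arms of the endothelial miR-126. On microcarriers against perfusion both arms of miR-126 were higher and miR-503 was lower. The 1, 6 and 3 of 20 called stand beside 2.38%, 20.6% and 15.5% of all miRNAs. The miR-92a call was lost in 6 of the 12 fits that left out a library (limma adjusted p up to 0.0894) and in a fit of the 2 groups alone. The miR-503 call was lost without perfusion replicate 1, 2 or 4 (limma adjusted p up to 0.0599).

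By Pearson correlation of log2 values over the 12 libraries, among 232 miRNAs with a mean of 10 or more normalized counts, miR-23a was most like miR-210 (r = 0.91). It was followed by miR-574-3p (0.87), miR-21-5p (0.79), miR-10390 (0.73), miR-106a (0.69) and miR-24-1-5p (0.66). Spearman's rho was 0.93, 0.85, 0.71, 0.75, 0.78 and 0.71 in the same order. These values describe 12 libraries that share donors and fall into 3 culture groups, so group differences enter them. miR-10390 was at 0 in all 4 plate libraries, and its r was -0.82 within microcarriers and 0.29 within perfusion. For miR-24-1-5p r was -0.85 within microcarriers, 0.68 within perfusion and -0.92 within plates. miR-574-3p stood at 544.4 ± 130 normalized counts on microcarriers, 392.1 ± 108 in perfusion and 281.0 ± 73.9 on plates (SD, n = 4 each), the same order of means as miR-210. Its r was 0.90 within microcarriers, 0.07 within perfusion and 0.83 within plates. Least like miR-210 were miR-7142-3p (r = -0.88), miR-628-5p (-0.81) and let-7c (-0.78), all with their highest mean on plates.

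After each culture's mean was taken out, the deviations of miR-21-5p followed those of miR-210 most closely (r = 0.89 over 12 libraries), ahead of miR-15a (0.86) and miR-196b-5p (0.77). At the other end were miR-223 (-0.93), miR-126-3p (-0.91) and miR-432-5p (-0.90). Over the 8 blood-cell markers r ran from -0.93 to 0.26, the last for miR-363. In donor 1 miR-126-3p was highest of the 4 donors on microcarriers (5951 normalized counts, against 902 to 1572). It was also highest on plates (2123 against 564 to 1557) and lowest in perfusion (119 against 130 to 185). Whether these miRNAs bear on miR-210 was not tested. Within single cultures of 4 libraries, the r of miR-21-5p with miR-210 was 0.99 on microcarriers, -0.10 in perfusion and 0.95 on plates. In donor 1 both miRNAs were lowest of the 4 donors on microcarriers (miR-21-5p at 242210 normalized counts, against 364175 to 434955 in the others) and on plates (170609 against 282873 to 325087). miR-23a behaved otherwise within cultures, at r = 0.93 on microcarriers, 0.93 in perfusion and -0.61 on plates.

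**Figure D5:**
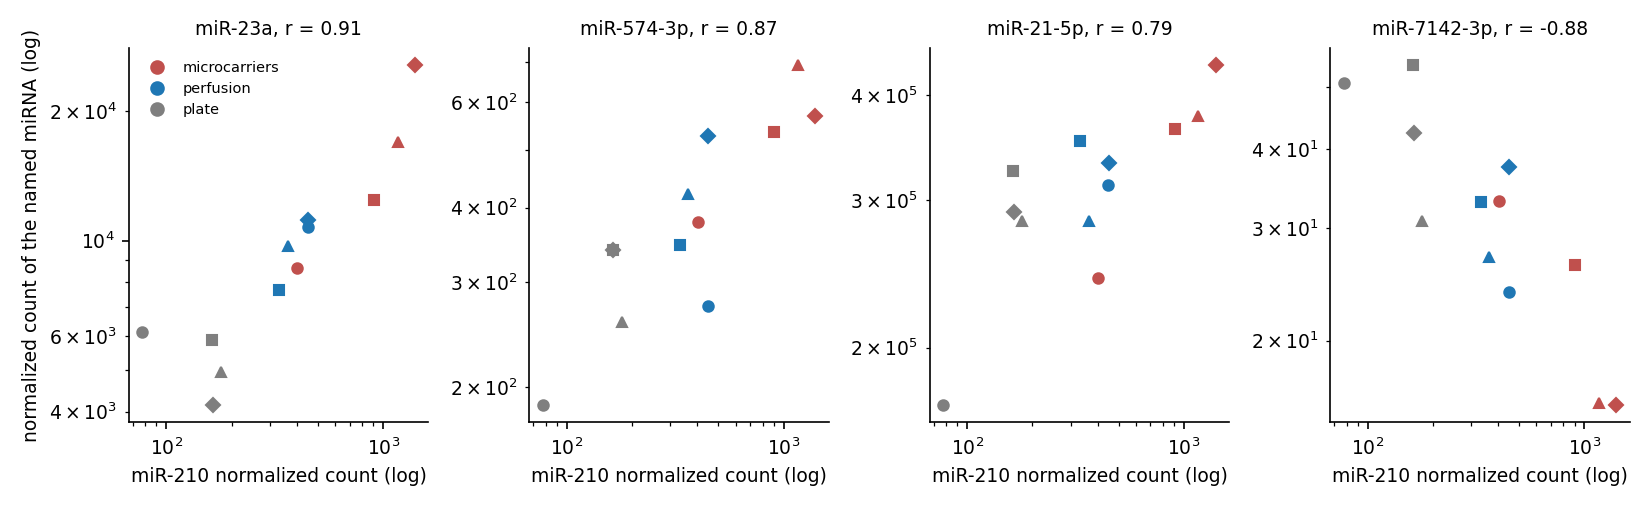
Normalized counts (both axes log) of the 3 miRNAs most like miR-210 and of the least like, miR-7142-3p, against miR-210 in the 12 libraries, with colours for culture method and marker shapes for donors (circle, square, triangle and diamond for donors 1 to 4). The titles give Pearson's r on log2 values, from 0.91 for miR-23a to -0.88 for miR-7142-3p.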

How the data were processed

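Per the labels' protocols, RNA was extracted with a Qiagen miRNA kit and libraries were made with a NEBNext small RNA kit. Alignment with Bowtie is named in the submitters' processing notes. For its version, the build, the annotation and the counter, the answer is "not given in the sources used here". What the authors deposited is a linear signal, a normalized read count per the file headers. In each library all values were multiples of 1 step, to within 0.001 of a read, and dividing by that step gave the reads. The library number heading each of the 12 columns was matched to the description of 1 sample.

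All 252 miRNAs (1 or more in at least 4 libraries) entered limma (version 3.58.1, run in R 4.3.3, prior variance depending on the mean) as log2(value + 1), over all 12 libraries with culture as the factor. P-values were adjusted by Benjamini-Hochberg. Fold changes are on that scale, which understates changes of low miRNAs. The design foresaw a count test for raw counts and this fit for normalized values, and the deposited values are normalized. Single ratios were compared by exact two-sided permutation in Python 3.11.15 (SciPy 1.17.1, NumPy 2.4.6, pandas 2.3.3). Same-numbered libraries come from the same donor, per the titles, and their deviations from group means correlated at 0.02 to 0.67, so donor was also fitted as a block. No replicate pair agreed within sampling noise. The fit was tested on simulated data. Lists and members were chosen with earlier results of these data known. Named miRNAs were list members called in any comparison, the 6 most and 3 least correlated with miR-210, the 3 with the most similar deviations, and the 2 neighbours on each side by mean. The 3 with the most opposite deviations were added after seeing the data. Alternatives were the donor block, scalings, pseudocounts of 0.1 and 10, filters, 2-group fits, no prior trend, and the omission of each library in turn. A limma-voom fit of the recovered reads and the alternatives for correlations and for the spread between donors were added after seeing the data.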

Additional observations from a re-analysis of the deposited data

Results flagged for a closer look

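The plate library of donor 1 stood apart from the other plate libraries in miR-210, at 77.6 normalized counts against 162.6 to 179.0. Its gap to the next value was 0.838 of the group's range, over the critical value of Dixon's test for 4 values, which chance passes in about 1 group of 20. In all, 9 groups were examined. As a share of counts, or per 1000 miR-21-5p (0.455), the same library was not set apart by this measure. Without it the log2 fold change of miR-210 was 2.37 for microcarriers over plates and 1.22 for perfusion over plates.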

How the results depend on the processing

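miR-210 kept its direction under every alternative run. For microcarriers over plates its limma call held in all of them, at log2 fold changes of 2.57 to 2.68, and of 2.37 to 3.03 with 1 library left out; for perfusion over plates these were 1.44 to 1.57 and 1.22 to 1.62, and for microcarriers over perfusion 1.01 to 1.15 and 0.93 to 1.53. Donor as a block (replicate block) made the last one pass at 1.15, alone and in limma-voom. The block also moved the calls of microcarriers over plates to 23 (40 with limma-voom) and of microcarriers over perfusion to 59 (75 with limma-voom), and changed no call of miR-210 over plates. A fit of the microcarrier and plate groups alone, without the block, made 3 calls. Calls of perfusion over plates became 64 under the block and 75 in limma-voom with it. Hypoxia-list calls under the block were 4, 7 and 5 for the 3 comparisons, 5, 7 and 6 in limma-voom with it, and 0 in the 2-group fit of microcarriers and plates. With 1 library left out, calls ran from 3 to 12 for microcarriers over plates, from 29 to 55 for perfusion over plates and from 22 to 49 for microcarriers over perfusion, the last count falling most without perfusion replicates 1, 3 or 4 and the second without perfusion replicates 1 or 3, and hypoxia-list calls from 0 to 3, 1 to 4 and 1 to 2. For the ratio to miR-21-5p, an exact sign-flip test over donors (replicate block) left 2.24, 1.21 and 1.03, each at p = 0.13, the smallest that 4 pairs can give, so none passed. With 1 library left out the ratios ran from 2.13 to 2.45, 1.13 to 1.34 and 0.90 to 1.24, and the last lost its call without any single perfusion library. let-7i-5p and the 10 most abundant miRNAs as denominators gave 1.00 and 1.02 there. edgeR and DESeq2 were not run. Depth limits miR-210 most in plate replicate 2, with 33 reads.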

Other observations

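miRNAs of about the same mean abundance as miR-210 differed in other ways between the cultures. miR-450b-5p, next above it by mean, stood at 582.0 ± 106 normalized counts on microcarriers, 526.8 ± 40.9 in perfusion and 448.8 ± 178 on plates (SD, n = 4 each). miR-129b, next below it, stood at 351.2 ± 118, 621.7 ± 190 and 451.2 ± 75.1 in the same order of cultures, and miR-129a-5p at nearly the same values, as rows that share reads would. miR-1285, the second above, stood at 784.6 ± 1008, 157.9 ± 65.5 and 642.4 ± 700, with an SD above the mean in 2 of the cultures.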
